A study of Mus musculus with 6 samples.

Results

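The genes described here encode the collagens, laminins and integrins, the Mmp and Adamts proteases, and the Timp inhibitors: the proteins that build the extracellular matrix, hold cells to it and cut it. The families were picked with earlier results of these data known, and within them the rule takes genes by symbol, as protein-coding genes named Col with a number, a and a number, Lama, Lamb or Lamc with a number, and Itga, Itgb, Mmp, Adamts or Timp with a number. Of 43432 listed genes 121 qualified: 44 collagens, 11 laminin chains, 21 integrin subunits, 22 Mmps, 19 Adamts proteases and 4 Timps. Genes named for a binding partner (Col4a3bp, Itgb3bp, Itgb1bp1 and Itgb1bp2) and Mmp1a, annotated as a polymorphic pseudogene, were left out, and letter-named subunits such as Itgav fall outside the rule.

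Neurons from the cortex of wild-type C57BL/6 mouse embryos at E16.5, male and female pooled, were grown for 7 days on dishes coated with laminin and poly-ornithine. On day 6 every culture, the 0 h controls included, was silenced overnight with 1 μM tetrodotoxin, which blocks sodium channels, and 100 μM DL-AP5, which blocks NMDA receptors. KCl at 55 mM was then given for 2 h or 6 h, or not at all (0 h), and poly(A) RNA of 2 libraries per time was sequenced. The design text calls these biological duplicates without naming embryos or cultures, so the p-values below measure only the spread between these libraries. The laminin coat is protein and adds no reads.

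Collagens are triple-stranded proteins that form fibrils, sheets or cell-surface anchors, and laminins are cross-shaped trimers of an alpha, a beta and a gamma chain that seed basement membranes. Integrins are pairs of an alpha and a beta subunit that bind these proteins outside the cell and the cytoskeleton inside it. Mmps and Adamts proteases cut the matrix, Timps block mainly the Mmps, and in the brain the cut substrates include the proteoglycans that surround synapses.

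Depth was even, with 25959298 to 28573067 expected counts per library and 18767 to 19212 genes with a count. Of the 121 genes 110 had more than 3 expected counts in some library. The other 11 (Col13a1, Lamc3, Itgb2l, Mmp1b, Mmp3, Mmp7, Mmp8, Mmp10, Mmp20, Mmp25 and Mmp27) reached at most 3 in every library and were at or near the limit of detection, and 6 of them had no count at all. Averaged over the libraries, 90 genes reached 10 normalized counts (counts divided by a size factor for depth). For the 60 genes averaging 50 or more, the SD of the log2 difference between duplicates was 0.387, 0.374 and 0.214 at 0, 2 and 6 h, beside 0.246, 0.429 and 0.214 over 12290 genes. At 2 h this difference followed GC content, with a Spearman correlation across genes of -0.643 for the 60 and -0.705 for all.

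In these cultures, which hold glial as well as neuronal markers, the highest transcript levels of the set were those of an inhibitor, a membrane-bound protease and a receptor subunit. In TPM, a level corrected for transcript length and depth, Timp2 stood highest with a mean of 327 over the 6 libraries. Mmp24, a membrane-anchored protease, followed at 100.2 TPM and the common integrin subunit Itgb1 at 72.2 TPM. The Timps together held 40.6% of the TPM of all 121 genes, the Mmps 22.2%, the integrins 17.5%, the collagens 8.5%, the Adamts genes 6.98% and the laminins 4.18%. Most of the Timp share was Timp2, beside 19.4 TPM for Timp3, 11.97 for Timp4 and 0.45 for Timp1, and without Timp2 the other 120 genes summed to 510.9 to 577 TPM per library, against 829.1 to 901.8 with it. No collagen averaged more than 12.03 TPM (Col26a1), and the chains of the main fibrillar collagens were near the floor, at 0.305 TPM for Col1a1, 0.528 for Col1a2 and 0.61 for Col3a1. Only 56 genes reached 1 TPM and 16 reached 10 TPM.

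**Figure D1:**
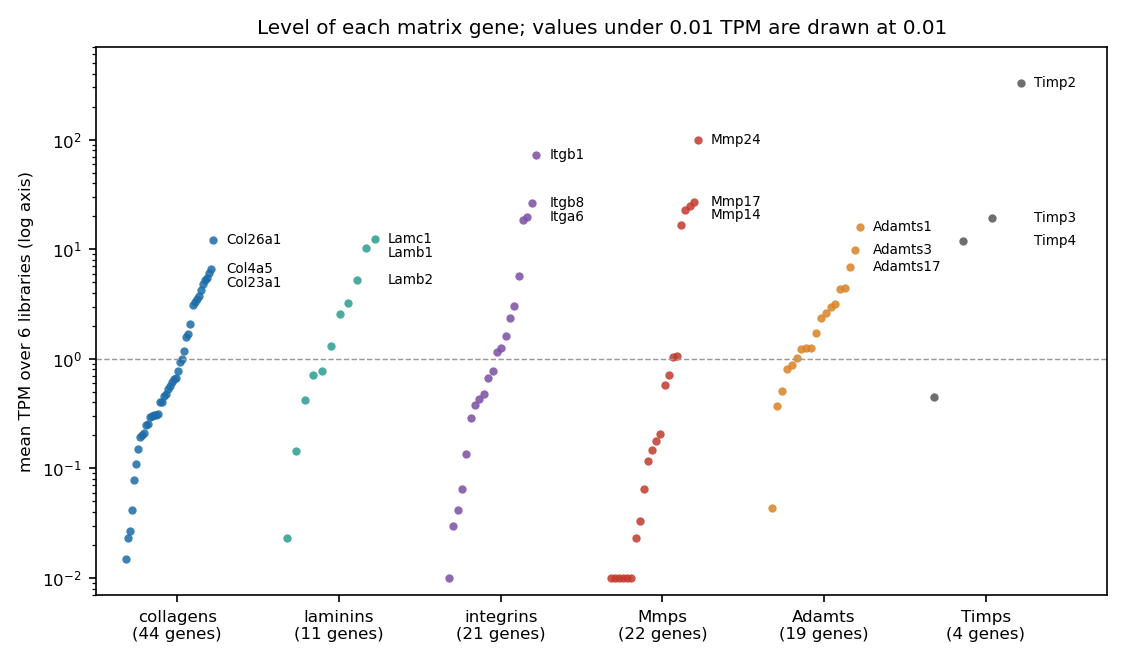
Mean TPM over the 6 libraries on a log axis, 1 point per gene, by family, with the 3 highest genes of each family named and a dashed line at 1 TPM. Timp2 (327 TPM), Mmp24 (100.2) and Itgb1 (72.2) stand above all collagens and laminins.

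Promoter sequence is shown for 2 groups of genes: a pair called higher at both times whose windows hold the same motif at the same distance, and the Mmp cluster that holds most of the AP-1 matches. Windows run from 250 bases before to 50 bases after a start in RefSeq on GRCm38.p6, and 96 windows matched 87 of the 121 genes. Matches to AP-1 and CRE were searched first, and TATAAA was added after the sequences were seen. Of the 3 genes called higher at 2 h and 6 h, Col10a1 and Adamts1 hold TATAAA and Col7a1 does not. The first 2 are shown over the 250 bases before the start, with TATAAA in capitals. The 6-base word TATAAA begins 32 bases before the start in each of them.

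Col10a1, chr10:34389731-34389980, + strand: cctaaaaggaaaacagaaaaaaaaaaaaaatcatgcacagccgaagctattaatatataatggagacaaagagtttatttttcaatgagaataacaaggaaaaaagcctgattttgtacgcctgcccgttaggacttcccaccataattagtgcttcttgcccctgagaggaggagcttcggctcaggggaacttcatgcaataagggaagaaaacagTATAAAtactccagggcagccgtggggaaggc
Adamts1, chr16:85803114-85803363, - strand: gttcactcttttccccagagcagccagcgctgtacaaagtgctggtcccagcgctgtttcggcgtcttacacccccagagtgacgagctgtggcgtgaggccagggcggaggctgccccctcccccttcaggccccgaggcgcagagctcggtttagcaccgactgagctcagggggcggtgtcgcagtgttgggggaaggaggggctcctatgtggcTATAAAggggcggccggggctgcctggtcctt

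TATAAA or its reverse TTTATA was present in 15 of the 96 windows (15.6%), beside 13.6% of 32851 windows in the table, so its presence does not set these genes apart. Neither window holds AP-1 (TGAGTCA, read TGACTCA on the other strand), the site of Fos and Jun dimers, or the full CRE (TGACGTCA), the site of CREB. AP-1 was found in 8 of the 96 windows (8.33%), beside 5.2% in the table, and CRE in 1, that of Col24a1 (1.04% beside 1.79%). Of the 9 genes of the Mmp cluster on chromosome 9, all with a window, 6 hold AP-1 shortly before the start. Of the other 78 genes with a window 2 hold it, Col6a1 90 bases before the start and Itga9 38 bases after it. These 6 are shown over the 100 bases before the start, with AP-1 in capitals.

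Mmp13, chr9:7272414-7272513, + strand: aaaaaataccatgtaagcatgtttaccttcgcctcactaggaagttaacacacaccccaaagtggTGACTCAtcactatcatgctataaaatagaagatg
Mmp12, chr9:7347274-7347373, + strand: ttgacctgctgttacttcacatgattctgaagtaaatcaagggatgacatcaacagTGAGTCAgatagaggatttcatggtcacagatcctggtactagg
Mmp1b, chr9:7388027-7388126, - strand: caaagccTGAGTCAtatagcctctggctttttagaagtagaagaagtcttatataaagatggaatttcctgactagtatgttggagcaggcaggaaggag
Mmp3, chr9:7445722-7445821, + strand: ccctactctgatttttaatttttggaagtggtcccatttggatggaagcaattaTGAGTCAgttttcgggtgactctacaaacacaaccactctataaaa
Mmp10, chr9:7502242-7502341, + strand: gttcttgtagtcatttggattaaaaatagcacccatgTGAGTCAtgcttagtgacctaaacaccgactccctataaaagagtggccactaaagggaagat
Mmp7, chr9:7691990-7692089, + strand: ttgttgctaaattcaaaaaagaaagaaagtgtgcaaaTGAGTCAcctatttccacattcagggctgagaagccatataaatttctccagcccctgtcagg

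The AP-1 letters begin 35 bases before the start in Mmp13, 44 in Mmp12, 46 in Mmp3, 63 in Mmp10 and Mmp7, and 93 in Mmp1b. By DESeq2 0 of these 6 genes were called in any comparison, and by edgeR Mmp13 was, which was also the 1 gene with an unadjusted p under 0.05 at 6 h, beside 28.5% of all genes called in any comparison. Mmp1b, Mmp3 and Mmp7 had no count in any library and could not be called, and Mmp10 had counts in 1 library only, at 3.2 normalized counts at 6 h. Mmp12, a macrophage elastase, had 8.0 and 13.5 normalized counts at 0 h, 6.0 and 10.3 at 2 h, then 20.3 and 15.1 at 6 h. For Mmp13, collagenase 3, the values were 1.8 and 0.8, then 2.0 and 1.0, then 10.7 and 9.7, and the groups at 0 h and 6 h did not overlap, but the call turned on the tool (log2 fold change 2.97 ± 1.38 SE, adjusted p = 0.0666 by DESeq2 and 0.0306 by edgeR). In the same libraries Fos itself had 38.2 and 34.6 normalized counts at 0 h, 6939 and 8222 at 2 h, then 3915 and 3806 at 6 h. A match of letters says nothing about binding.

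Over the whole set, as over all genes, more calls were made at 6 h than at 2 h, and they went in both directions. A gene is called when its adjusted p is at most 0.05 and its change exceeds 2-fold. At 2 h against 0 h, 3 of 105 genes tested were called higher (2.86%) and 4 lower (3.81%), beside 3.62% and 5.94% of all genes tested. At 6 h against 0 h, 14 of 111 were called higher (12.6%) and 8 lower (7.21%), beside 9.1% and 10.2%. With library totals as size factors the split at 6 h turned to 8 higher and 12 lower, and of all genes to 1032 higher and 2564 lower, from 1572 and 1761. At 6 h against 2 h the counts were 13 of 103 higher (12.6%) and 6 lower (5.83%), beside 10.1% and 8.02%. In at least 1 comparison 31 of 111 genes were called (27.9%), beside 28.5% of all genes, so as a set these genes were called about as often as genes at large. Both comparisons with 0 h share their control libraries.

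By family, at least 1 call was made for 9 of 19 Adamts genes, 8 of 20 integrins, 10 of 43 collagens, 2 of 11 laminins, 2 of 14 Mmps and 0 of 4 Timps, beside 28.5% of all genes; whether these shares differ was not tested. By time course, 6 of 103 genes (5.83%, beside 3.73% of all genes) were higher at 6 h than at both earlier times: Col7a1, Col10a1, Col12a1, Itga5, Adamts8 and Adamts9. Another 4 (3.88%, beside 6.22%) were lower at 6 h than at both earlier times: Itga3, Adamts2, Adamts17 and Adamts18. A fall at 2 h followed by a rise was called for 2 genes, Adamts15 and Mmp16 (1.94%, beside 3.21%). The reverse course, higher at 2 h and then lower, was called for 0 of 103 by DESeq2 and by edgeR, with 2 genes passing an unadjusted p under 0.05 in both steps, beside 0.506% of all genes.

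**Figure D2:**
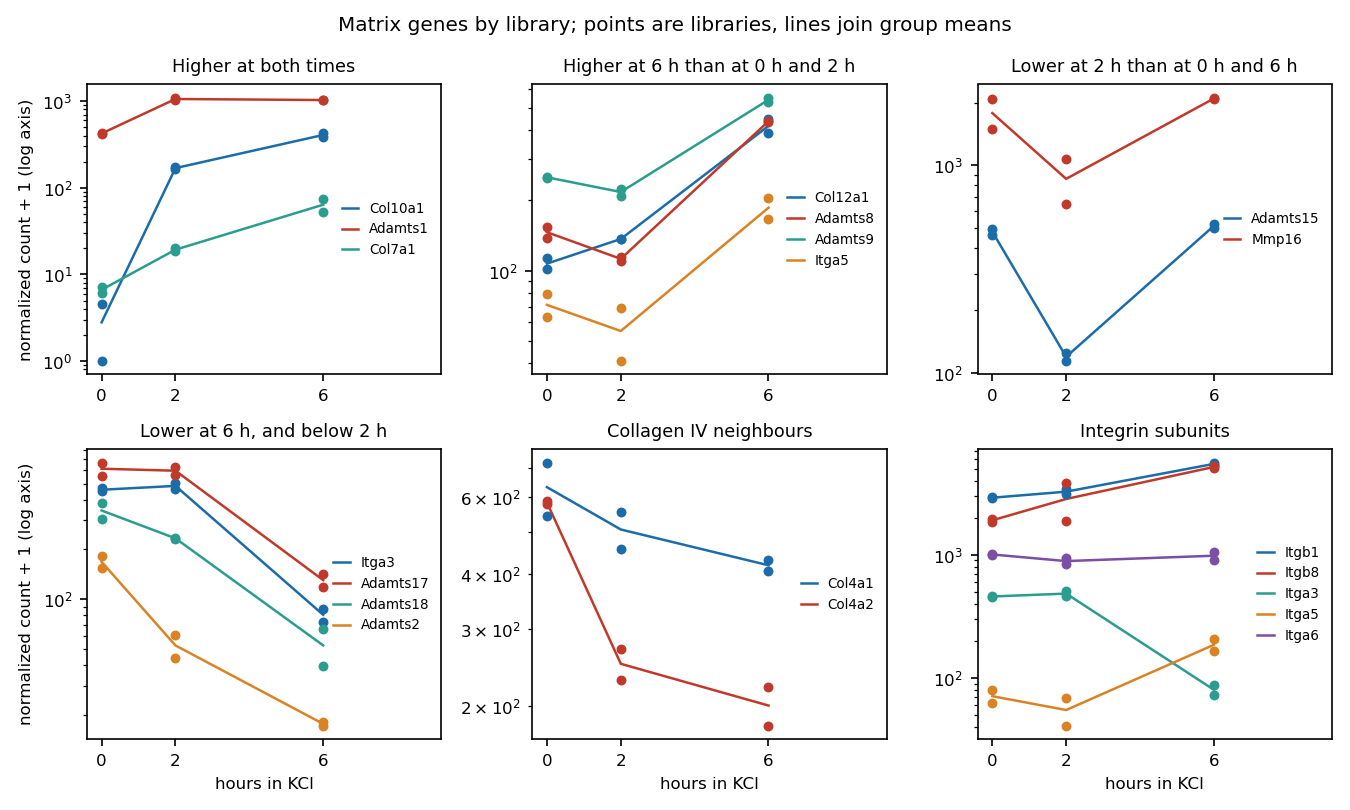
Normalized count plus 1 (log axis) against hours in KCl for 18 genes, with 1 point per library and lines through the 2 libraries' mean. Col10a1 leaves the floor by 2 h, Adamts15 and Mmp16 are lowest at 2 h, Itga3, Adamts17 and Adamts18 are lowest at 6 h, and Col4a2 is lower at 2 h and 6 h than at 0 h.

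Among the collagens, a gene of cartilage gave the largest change of the whole set. Col10a1 (ENSMUSG00000039462, chr10:34389981-34397085) encodes collagen X, the short-chain collagen of the growth plate. It had 3.6 and 0 normalized counts at 0 h, 171.8 and 163.3 at 2 h, then 423.7 and 387.2 at 6 h. It was almost absent at 0 h, and the groups do not overlap at any time. The log2 fold change was 6.60 ± 0.75 at 2 h (adjusted p = 1.21e-16), 7.87 ± 0.75 at 6 h (adjusted p = 4.59e-24) and 1.27 ± 0.23 from 2 h to 6 h (adjusted p = 1.42e-07). Since only 4 counts were pooled at 0 h, the size against 0 h is loose: the ratio of means was 94.4 at 2 h, with a 95% exact Poisson interval from the 0 h count of 36.9 to 346, and 228 at 6 h, from 89.2 to 838. These intervals cover counting error only, and all 4 counts came from the first 0 h library. The fitted log2 values were 5.57 at 2 h and 6.84 at 6 h without the second 0 h library, and 10.09 and 11.36 without the first, so the size depends on that library while the call held under each alternative tried. The gene lies inside Nt5dc1 on the other strand and shares exon sequence with it. Nt5dc1 had at most 19.5 normalized counts in any library, with 6.4 and 4.3 at 6 h, and its part in the counts of Col10a1 was not tested.

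Col7a1, which makes the anchoring fibrils of skin, was also higher at both times but from a low level. It had 6.2 and 5.1 normalized counts at 0 h, 19 and 17.6 at 2 h, then 73.8 and 51.6 at 6 h, so the groups do not overlap. The change at 6 h was 3.48 ± 0.62 (adjusted p = 1.33e-07). At 2 h it was 1.70 ± 0.65 (adjusted p = 0.0363), a call lost whichever library was left out, with values from 1.56 to 1.86, and also with library totals, with the replicate block (with or without GC offsets) and in the fit of only these groups. The step from 2 h to 6 h, 1.78 ± 0.53 (adjusted p = 0.00259), was lost without the second 2 h library (1.74) or the first 6 h library (1.5).

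Col12a1 encodes collagen XII, a fibril-associated collagen, and was called at 6 h and not at 2 h. It had 111.9 and 100.3 normalized counts at 0 h, 135.8 and 135.4 at 2 h, then 387.4 and 445.3 at 6 h. Its log2 fold change at 2 h was 0.36 ± 0.23 (adjusted p = 0.27), and at 6 h the change was 1.97 ± 0.21 against 0 h (adjusted p = 6.75e-19) and 1.62 ± 0.21 against 2 h (adjusted p = 4.08e-13). Among the 7 fibril-associated collagens averaging at least 10, the log2 fold changes at 6 h ran from -0.79 to 1.97 with a median of -0.10. Col14a1, of the same class, was lower at 6 h than at 2 h (-1.08 ± 0.35, adjusted p = 0.00556; 94.9 and 95.1 normalized counts at 2 h against 37.5 and 52.7), a call lost without the first or second 2 h library (-1.07 and -1.06) or the first 6 h library (-0.85). Col20a1, with a mean under 10, passed at 6 h on 2.7 and 3.4 against 18.2 and 16.1 normalized counts and was lost whichever library was left out, at log2 fold changes of 2.35 to 2.69, with library totals and with the replicate block (with or without GC offsets); it shares exon sequence with BX649560.1, which had 293.8 and 281.5 normalized counts at 0 h and 568.2 and 566.8 at 6 h.

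The fibrillar collagens with enough counts had log2 fold changes above 0 at both times, except for 3 at 6 h when library totals set the scale. Of 11 chains, 3 were called higher at 6 h and 0 lower by DESeq2 and by edgeR, with 0 lower at an unadjusted p under 0.05, beside 9.1% higher and 10.2% lower of all genes tested. The median log2 fold change of the 10 chains averaging at least 10 was 0.66 at 2 h, where values ran from 0.23 to 0.79, and 0.74 at 6 h, where they ran from 0.14 to 1.73. At 2 h 0 were called by either tool, with 2 higher at an unadjusted p under 0.05, beside 3.62% higher and 5.94% lower of all genes tested. Col11a1, a minor chain of cartilage fibrils, had 194.4 and 221.6 normalized counts at 0 h, 284.6 and 247.1 at 2 h, then 496.5 and 450.7 at 6 h (1.19 ± 0.19, adjusted p = 4.41e-09). Col5a2, which sets fibril width, stood at 209.5 and 251.1, then 365.5 and 416.6, then 469.7 and 487.2 (1.05 ± 0.19, adjusted p = 1.08e-07). With library totals as size factors, the values for Col11a1 (0.94) and Col5a2 (0.81) fell under 2-fold, and so did that of Col5a2 without the first 0 h library (0.93).

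Col1a2, the second chain of collagen I, is a weaker case. It had 13.3 and 15.2 normalized counts at 0 h, 26 and 19.6 at 2 h, then 27.8 and 66.7 at 6 h, and so rested on the second 6 h library. The change at 6 h was 1.73 ± 0.63 (adjusted p = 0.0155), and the call was lost without that library (0.97) or without the first or second 0 h library (1.64 and 1.83). The same library was highest in 2 contractile genes of mural cells, Tagln (6.60 TPM, beside 3.86 in the first 6 h library and 2.07 to 3.07 earlier) and Acta2 (2.40 TPM, beside 0.93 to 1.44), and the 7 mural markers summed to 5.95 to 6.14 TPM at 0 h, 4.93 to 6.04 at 2 h and 6.90 to 10.35 at 6 h. Of the other mural markers that library was lowest of all 6 in Vtn (0.23 TPM) and Pdgfrb (0.60 TPM), Rgs5 was at 0.49 and 0.52 TPM in the 6 h libraries, and Kcnj8 and Abcc9, which define pericytes, were under 0.1 TPM. The 7 meningeal fibroblast markers summed to 16.96 to 19.66 TPM at 0 h and 12.15 to 13.66 at 6 h, and DESeq2 did not call them. The part of such cells was not tested.

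In collagen IV, the sheet of basement membranes, Col4a2 fell. Col4a1 and Col4a2 (chr8:11198423-11312826 and chr8:11312805-11449287) are read in opposite directions from starts 21 bases apart, and their chains join in the same trimer. Col4a2 had 576.1 and 587.4 normalized counts at 0 h, 227.7 and 268.8 at 2 h, then 178.7 and 219.4 at 6 h. It fell at 2 h (-1.23 ± 0.19, adjusted p = 4.36e-09) and was also called lower at 6 h (-1.55 ± 0.20, adjusted p = 5.33e-14), with no overlap with 0 h. Col4a1 had 543.3 and 718.8, then 456.4 and 553.1, then 405.5 and 430.2, a change of -0.32 ± 0.20 at 2 h (adjusted p = 0.268) and -0.60 ± 0.21 at 6 h (adjusted p = 0.0104), under 2-fold at both times. The difference between the neighbours was not tested. The mural list was split: at 6 h Tagln and Rgs5 were called higher (1.35 and 1.45) and Pdgfrb lower (-1.41), and the other 4 were not called. Pdgfrb was at 1.75 and 2.00 TPM at 0 h, 0.75 and 0.93 at 2 h, then 0.65 and 0.60 at 6 h, and the part of such cells in the fall of Col4a2 was not tested. Of the endothelial list, 6 of 8 markers (Cldn5, Cdh5, Flt1, Tie1, Tek and Emcn) averaged under 0.1 TPM, the 8 summed to at most 1.90 TPM in any library, and Pecam1 was called higher at 2 h and 6 h (1.45 and 1.16).

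The other collagen IV pairs share starts in the same way. Col4a3 and Col4a4, 72 bases apart, had at most 17.2 normalized counts and were not called. Col4a5, the second most abundant collagen at 6.54 TPM, was not called and stayed within 398.6 to 675.1 normalized counts. Its neighbour Col4a6, with starts 1309 bases apart, was called lower at 6 h than at 2 h (-1.02 ± 0.43, adjusted p = 0.041; 58.9 and 61.0 against 34.2 and 24.7 normalized counts), a call lost whichever library was left out, with values from -1.28 to -0.81, without independent filtering, with the replicate block (with or without GC offsets) and in the fit of only these groups.

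By TPM the highest collagens are Col26a1, Col4a5 and Col23a1 (6.07 TPM), none of them a classical fibril former and none called. Col26a1 had 397.7 and 430.6 normalized counts at 0 h, 559.2 and 602.7 at 2 h, then 303.9 and 377.5 at 6 h, so it was highest at 2 h (0.49 ± 0.18, adjusted p = 0.0264) and not called. Col23a1, a transmembrane collagen, had 411.9 and 398.6, then 531.3 and 669.9, then 495.4 and 505.5 (0.57 ± 0.18 at 2 h, adjusted p = 0.00701), also under 2-fold. Over the 36 collagens averaging at least 10, the median log2 fold change at 2 h was 0.39 with 30 above 0, beside 0.01 over 14668 genes. At 6 h it was 0.26 with 23 above 0, beside -0.00. Scaling by library totals shifted the median of all genes to -0.16 at 2 h and -0.25 at 6 h, and the collagens then had medians of 0.22 and 0.01, with 27 and 18 above 0.

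**Figure D3:**
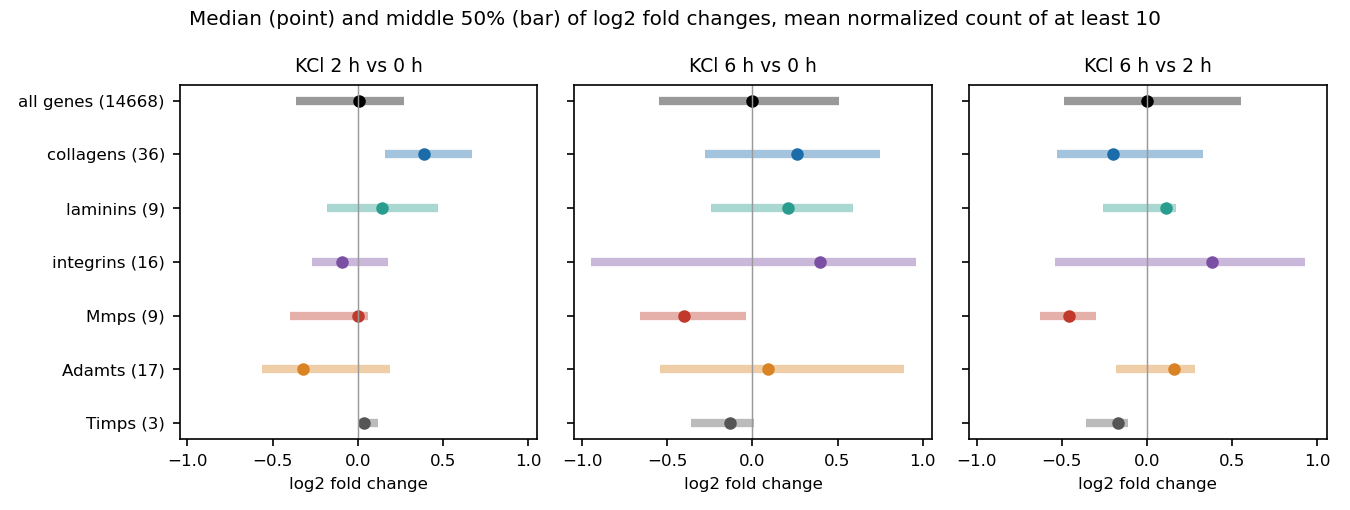
Median (point) and middle 50% (bar) of log2 fold changes for all 14668 genes and for each family, in 3 panels for the 3 comparisons, counting genes that average 10 or more normalized counts. The collagens sit above all genes at 2 h (0.39 beside 0.01), the Mmps below them at 6 h (-0.40 beside -0.00), and the integrins have the widest bar at 6 h.

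Of the laminins, the common gamma chain rose between 2 h and 6 h, and the common beta chain was lower at both times by less than 2-fold. Lamc1 (chr1:153218922-153332786), the gamma chain of most laminins, had 1036 and 1120 normalized counts at 0 h, 904 and 1003 at 2 h, then 2123 and 2056 at 6 h. The 6 h libraries stand clear of the other 4, and Lamc1 was called against 2 h (1.13 ± 0.13, adjusted p = 8.47e-18) but not against 0 h, where 0.95 ± 0.13 lies under 2-fold (adjusted p = 3.14e-13). Lamb1, its most abundant beta partner, had 998 and 1112, then 661 and 726, then 813 and 722, changes of -0.61 ± 0.15 at 2 h (adjusted p = 0.00038) and -0.46 ± 0.15 at 6 h (adjusted p = 0.00585), both under 2-fold. Lamb2, the next beta chain, had 246.1 to 327.0 in all 6 libraries and was not called.

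Laminin alpha chains were scarcer. Lama2, the chain of muscle and glial basement membranes, was highest at 3.23 TPM, with 484.7 and 467.7 normalized counts at 0 h, 548.2 and 555.2 at 2 h, then 357.4 and 333.4 at 6 h (-0.46 ± 0.15 at 6 h, adjusted p = 0.0068). Lama4, the endothelial chain, was called from 2 h to 6 h (1.36 ± 0.48, adjusted p = 0.0112) on 37.9 and 47.6 against 120.9 and 99.0 normalized counts. Its 0 h libraries differed by more than 2-fold (32.8 and 77.5), and the call was lost without the first 2 h library (1.22) or without the first or second 6 h library (1.21 and 1.5). Against 0 h, 0 of 10 laminins tested at 2 h and 0 of 11 at 6 h were called by DESeq2 or edgeR in either direction (all genes: 3.62% higher and 5.94% lower at 2 h, 9.1% and 10.2% at 6 h), with 1 higher and 1 lower passing an unadjusted p under 0.05 at 2 h, then 2 and 2 at 6 h.

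Integrin subunits went in both directions. Of the alpha subunits that bind laminin, Itga3 fell sharply, and of those that bind the RGD sequence of fibronectin and similar proteins, Itga5 rose, while the beta subunit that both pair with was higher by less than 2-fold. Itga3 (ENSMUSG00000001507, chr11:95044474-95076801) had 449.2 and 466.0 normalized counts at 0 h, 462.4 and 503.5 at 2 h, then 86.7 and 72.1 at 6 h. At 2 h no change was called (0.08 ± 0.17, adjusted p = 0.825), and by 6 h it was 5.77-fold lower than at 0 h (-2.53 ± 0.21, adjusted p = 4.94e-33) and had fallen from 2 h (-2.60 ± 0.21, adjusted p = 1.68e-34). Both calls held under every alternative tried, and the value against 0 h stayed between -2.77 and -2.40.

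Itga5 (chr15:103344286-103366763), the fibronectin receptor subunit, had 62.1 and 78.4 normalized counts at 0 h, 39.9 and 68.2 at 2 h, then 204.4 and 165.6 at 6 h. The 6 h libraries do not overlap with the others, and the change was 1.40 ± 0.35 against 0 h (adjusted p = 0.000245) and 1.78 ± 0.36 against 2 h (adjusted p = 4.13e-06). Without the first 6 h library the call against 0 h was lost (1.24). By TPM, Itga3 went from 8.56 to 1.48 between 0 h and 6 h and Itga5 from 1.22 to 2.83, so that Itga5 was the lower of the pair at 0 h and the higher at 6 h.

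Itgb1 (chr8:128685654-128733200) pairs with both and with most alpha subunits. It had 2937 and 2862 normalized counts at 0 h, 3408 and 3084 at 2 h, then 5597 and 5311 at 6 h, a 1.88-fold difference under the 2-fold threshold (0.91 ± 0.11, adjusted p = 1.65e-15). Itgb8, which with the alpha-v subunit frees TGF-beta from its latent complex, rose to 5059 and 5243 normalized counts at 6 h from 1957 and 1846 at 0 h (1.44 ± 0.28, adjusted p = 1.76e-06). At 2 h its duplicates differed by more than 2-fold, at 3787 and 1875, and the change there (0.57 ± 0.28, adjusted p = 0.124) cannot be read closely. Itga6, the other abundant laminin-binding alpha subunit at 19.6 TPM, stayed between 838.8 and 1053 in all libraries and was not called (-0.03 ± 0.14 at 6 h, adjusted p = 0.881). The third of that class, Itga7, had a log2 fold change of -0.91 ± 0.29 at 6 h (adjusted p = 0.00582), under 2-fold.

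Further integrin subunits moved on smaller counts. Itga9 and Itga4, which form a class of their own, were both called lower at 6 h. Itga9 had 106.5 and 128.9 normalized counts at 0 h and 56.7 and 48.4 at 6 h (-1.16 ± 0.33, adjusted p = 0.00146), lost without the second 0 h library (-1.02) or the second 6 h library (-1.05). Itga4 had 94.1 and 94.4 and then 46.0 and 44.1 (-1.06 ± 0.36, adjusted p = 0.00792), lost without the first or second 0 h library (-1.06 each) or the first or second 6 h library (-1.10 and -1.03); it overlaps Cerkl on the other strand, which had 21.3 and 25.3 at 0 h and 5.4 and 1.1 at 6 h. From 2 h to 6 h, Itga2, a collagen receptor subunit, was called higher (26 and 20.7 against 67.4 and 72.1; 1.58 ± 0.42, adjusted p = 0.00058), lost without the second 6 h library (1.53). Itga8, an RGD-binding subunit, was also higher (131.8 and 81.7 against 232.2 and 237.7; 1.14 ± 0.29, adjusted p = 0.000349), lost with GC offsets (0.96), with these and the replicate block (0.97), and without the second 2 h library (0.85). Itga2b, the platelet subunit, passed at 6 h against 0 h on 8.0 and 11.8 against 25.7 and 30.1 (1.49 ± 0.65, adjusted p = 0.0487), lost whichever library was left out, with values from 1.24 to 1.81, and under 6 other settings, TMM factors and library totals among them. At 6 h against 0 h the 3 RGD-binding subunits lay between 0.95 and 1.49, the 3 of 4 collagen-binding ones that average at least 10 normalized counts between 0.58 and 0.99, and the 3 laminin-binding ones between -2.53 and -0.03, where Itga6 cannot be told from 0.

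Markers of other cell types are given beside these late changes. The 6 radial glia markers went in both directions. They summed to 273.6 to 302.4 TPM at 0 h, 327.8 to 392.6 at 2 h and 597.6 to 615.8 at 6 h. Vim (209 and 230 TPM at 0 h, 500 and 520 at 6 h) and Nes (30.9 and 37.0, then 63.8 and 63.4) were called higher at 6 h, Hes5 was called lower (7.99 and 6.37, then 1.66 and 1.98), and Pax6, Sox2 and Eomes were not called. The 7 astrocyte markers summed to 516.7 to 558.3 TPM at 0 h and 418.8 to 430.3 at 6 h, and DESeq2 did not call them. Their log2 fold changes at 6 h ran from -0.63 (Gfap) to 0.04 (Sox9), with -0.03 for Slc1a3, the highest of them in TPM. TPM is scaled to each library's total, and scaling by library totals moved the median of all genes to -0.25 at 6 h. The 9 neuronal markers summed to 3187 to 3826 TPM over all libraries, with Gad1 and Gad2 called higher at 6 h (1.41 and 1.36) and Tubb3 lower (-1.01). The 9 microglia markers summed to at most 10.9 TPM, and 1, P2ry12, was called higher at 6 h (0.10 and 0.03 TPM, then 0.63 and 0.64). The part of these cells was not tested, and in bulk RNA fewer cells of a type and less RNA per cell cannot be told apart.

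Among the Mmps the membrane-anchored enzymes were the abundant ones, Mmp24 (100.2 TPM), Mmp17 (27.2), Mmp14 (24.5), Mmp16 (23.0) and Mmp15 (16.8). No secreted Mmp averaged more than 1.07 TPM over the 6 libraries (Mmp2). Mmp24 had 5917 and 5709 normalized counts at 0 h, 6263 and 7655 at 2 h, then 5382 and 5926 at 6 h, overlapping at 0 h and 6 h (-0.04 ± 0.14, adjusted p = 0.847). Mmp14, which activates the secreted gelatinase Mmp2, had 857.5 and 980.1, then 884.8 and 1034, then 711.6 and 679.8 (-0.40 ± 0.16 at 6 h, adjusted p = 0.0244). Mmp17 had 1862 and 1915, then 1503 and 2075, then 1119 and 1194 (-0.71 ± 0.18 at 6 h, adjusted p = 0.000321), below the 0 h libraries but under 2-fold. Mmp24 shares reads with other genes in all 6 libraries and exon sequence with BC029722 on the other strand, which had 312.5 to 500.3 normalized counts.

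Mmp16 was the one membrane-anchored Mmp called. It had 2081 and 1489 normalized counts at 0 h, 1067 and 651 at 2 h, then 2078 and 2118 at 6 h, a dip at 2 h with a return to the level of 0 h. The fall was -1.05 ± 0.26 (adjusted p = 0.000307) and the return 1.29 ± 0.26 (adjusted p = 2.86e-06). The fall was lost with offsets for GC content (-0.96, also with the replicate block) and without the first 0 h library (-0.79) or the second 2 h library (-0.76), and the return without the second 2 h library (0.99).

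The secreted gelatinases studied most in brain were low and not called. Mmp9 had 21.3 and 14.3 normalized counts at 0 h, 20.0 and 24.8 at 2 h, then 12.8 and 9.7 at 6 h, with log2 fold changes of 0.33 ± 0.63 (adjusted p = 0.788) and -0.66 ± 0.67 (adjusted p = 0.452). Mmp2 had 47.9 and 49.7, then 49.9 and 51.7, then 42.8 and 25.8 (-0.51 ± 0.44 at 6 h, adjusted p = 0.358). The errors leave room for changes of either sign. Mmp11, stromelysin 3, was called lower at 6 h, with 42.6 and 61.5 normalized counts at 0 h, 19 and 28.9 at 2 h, then 11.8 and 6.5 at 6 h (-2.51 ± 0.62, adjusted p = 0.000218), a call lost without the second 0 h library (-2.22). It overlaps Chchd10, which had 24.6 to 50.6 normalized counts. Over the 9 Mmps averaging at least 10, 7 lay below 0 at 6 h, with a median of -0.40 (6 with GC offsets, 8 with library totals).

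**Figure D4:**
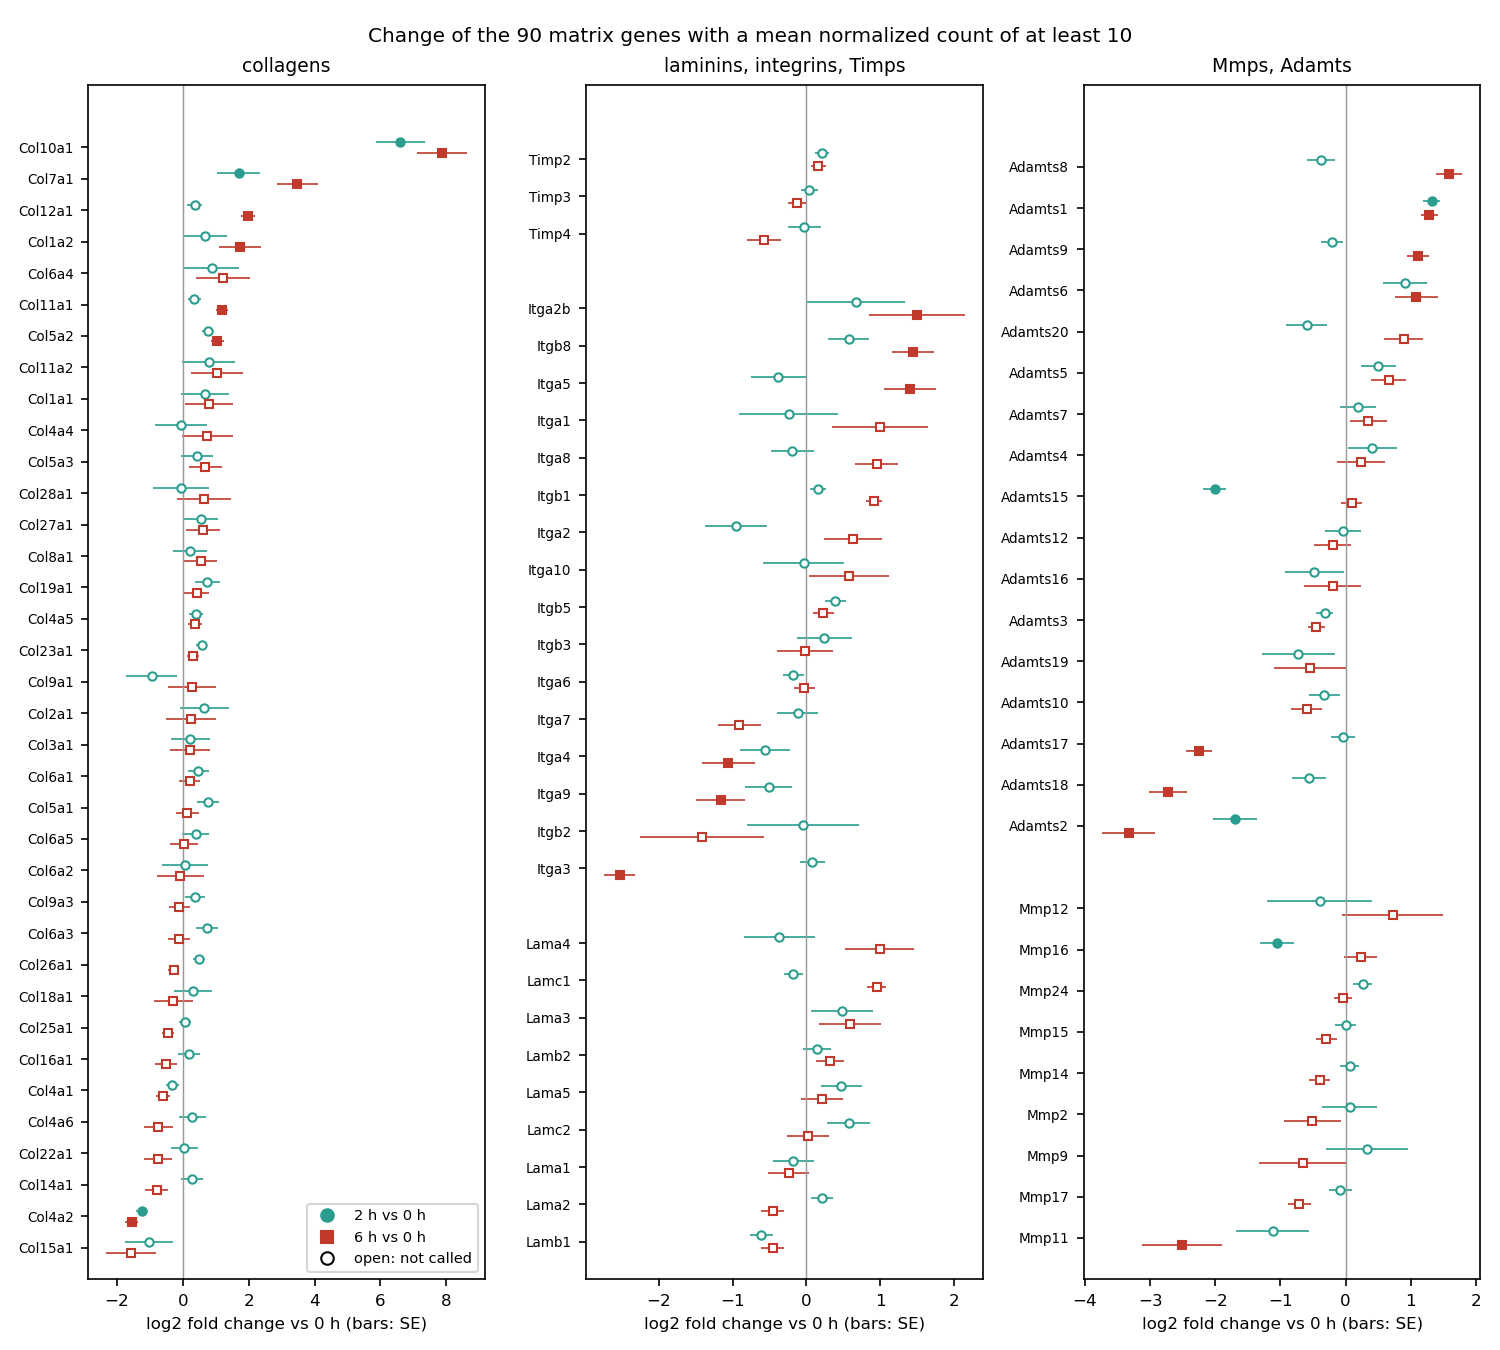
Log2 fold change against 0 h, with SE, for the 90 genes averaging at least 10 normalized counts, in 3 panels of families (2 h circles, 6 h squares; filled where called). Col10a1 lies at 6.60 and 7.87, and Adamts2 (-3.33), Adamts18 (-2.73) and Itga3 (-2.53) lie lowest at 6 h; only Col4a2, Mmp16, Adamts2, Adamts15, Col7a1, Col10a1 and Adamts1 have a filled circle.

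The Adamts proteases went in both directions, with 9 of 19 called in some comparison, beside 28.5% of all genes. Of the 7 that cleave aggrecan-type proteoglycans, the core of perineuronal nets, 3 were called higher at 6 h (Adamts1, Adamts8 and Adamts9) and 0 lower by DESeq2 and by edgeR, with 0 lower at an unadjusted p under 0.05, beside 9.1% higher and 10.2% lower of all genes tested. The median log2 fold change of the 7 was 0.89. From 2 h to 6 h, 4 were called higher (Adamts8, Adamts9, Adamts15 and Adamts20) and again 0 lower on all 3 counts, beside 10.1% and 8.02% of all genes tested. The values at 6 h against 0 h ran from 0.09 to 1.59, and with library totals as size factors 2 of the 7 lay below 0. Over the whole family, 6 genes at 6 h were higher and 5 lower at an unadjusted p under 0.05, and edgeR called the same numbers as DESeq2, 4 and 3.

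Adamts1 (ENSMUSG00000022893, chr16:85793827-85803113), the most abundant of the family at 15.96 TPM, rose by 2 h and was as high at 6 h. It had 429.7 and 413.8 normalized counts at 0 h, 1018 and 1094 at 2 h, then 1037 and 1017 at 6 h. The change was 1.32 ± 0.13 at 2 h (adjusted p = 6.36e-22) and 1.28 ± 0.13 at 6 h (adjusted p = 5.35e-21), with -0.04 ± 0.13 between them (adjusted p = 0.834). Adamts5, its neighbour on the same strand 98715 bases away start to start, had 87.0 and 98.6, then 146.8 and 115.8, then 144.5 and 148.4 (0.66 ± 0.27 at 6 h, adjusted p = 0.0346), under 2-fold.

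Adamts15 and Adamts8 lie head to head on chromosome 9 with starts 20110 bases apart, and were called together only from 2 h to 6 h. Adamts15 (chr9:30899155-30922452) had 493.6 and 461.8 normalized counts at 0 h, 123.8 and 112.7 at 2 h, then 495.4 and 522.7 at 6 h. It fell at 2 h (-2.01 ± 0.18, adjusted p = 4.59e-26) and rose by 6 h (2.11 ± 0.18, adjusted p = 2.44e-28) to counts like those at 0 h (0.09 ± 0.16, adjusted p = 0.689). Adamts8 (chr9:30942562-30963838) had 137.6 and 152.5, then 108.8 and 113.7, then 433.4 and 438.8. Its change was -0.38 ± 0.21 at 2 h (adjusted p = 0.19), 1.59 ± 0.20 at 6 h (adjusted p = 8.8e-15) and 1.97 ± 0.20 from 2 h to 6 h (adjusted p = 2.01e-20). Sox10, which marks the oligodendrocyte lineage, dipped like Adamts15, from 5.92 and 8.38 TPM at 0 h to 0.80 and 1.27 at 2 h, then 4.90 and 4.82 at 6 h; the 6 markers of that lineage summed to 123.5 to 146.4, 94.9 to 111.9 and 120.7 to 131.0 TPM. Their part was not tested.

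Adamts9 and Adamts20, close relatives of each other, also rose from 2 h to 6 h. Adamts9 had 249.4 and 251.1 normalized counts at 0 h, 223.7 and 208.8 at 2 h, then 527.5 and 550.7 at 6 h (1.11 ± 0.17 against 0 h, adjusted p = 2.78e-10, falling under 2-fold at 0.86 with library totals as size factors). Adamts20 had 94.1 and 82.6, then 68.9 and 47.6, then 168.0 and 159.2 (1.49 ± 0.31 from 2 h to 6 h, adjusted p = 8.46e-06). Adamts6 was called at 6 h (1.08 ± 0.33, adjusted p = 0.00371; 47.0 and 57.3 against 119.8 and 101.1) and lost with library totals as size factors (0.83), with GC offsets (0.94, also with the replicate block), without the first 0 h library (0.95) or without the first or second 6 h library (0.95 and 1.2).

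Adamts2, Adamts17 and Adamts18 fell, and with Itga3 and Mmp11 they had the 5 lowest log2 fold changes at 6 h among called genes. Adamts2, which trims the ends of procollagen so that fibrils can form, had 152.7 and 181.2 normalized counts at 0 h, 42.9 and 60.0 at 2 h, then 17.1 and 16.1 at 6 h. It fell in both steps (-1.70 ± 0.34 at 2 h, adjusted p = 9.47e-06, and -1.63 ± 0.42 from 2 h to 6 h, adjusted p = 0.00048) and was 10.0-fold lower at 6 h than at 0 h (-3.33 ± 0.41, adjusted p = 4.32e-15). Adamts3, of the same procollagen-cleaving class and 9.82 TPM, had 1335 and 1242, then 1052 and 1012, then 903 and 980 (-0.45 ± 0.13 at 6 h, adjusted p = 0.00122), under 2-fold. The difference between the changes of these genes was not tested.

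Adamts17 and Adamts18 fell between 2 h and 6 h and were not called at 2 h. Adamts17 had 669.3 and 557.9 normalized counts at 0 h, 562.2 and 631.7 at 2 h, then 117.7 and 140.9 at 6 h (-2.25 ± 0.20 against 0 h, adjusted p = 1.14e-26, and -2.21 ± 0.20 against 2 h, adjusted p = 2.36e-25). Adamts18 had 379.9 and 305.1, then 234.7 and 229.5, then 38.5 and 64.5 (-2.73 ± 0.29, adjusted p = 2.33e-19, and -2.17 ± 0.30, adjusted p = 3.04e-12). Neither 6 h group comes near the 4 earlier libraries. Adamts17 shared reads with another gene in 1 library.

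The Timps, which set how active the Mmps can be, were not called at any time. Timp2 (chr11:118301069-118355740) had 15241 and 14057 normalized counts at 0 h, 16483 and 17393 at 2 h, then 16366 and 16343 at 6 h (0.16 ± 0.10 at 6 h, adjusted p = 0.189). Timp3 had 1306 and 1376, then 1320 and 1432, then 1220 and 1226 (-0.13 ± 0.12 at 6 h, adjusted p = 0.383). Timp4 had 245.9 and 210.7, then 202.7 and 245.0, then 147.7 and 158.1 (-0.58 ± 0.23 at 6 h, adjusted p = 0.028), under 2-fold. Timp1, the inducible inhibitor of injured tissue, had at most 8.6 normalized counts in any library.

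Of 4 Timps, 0 were called in any comparison by DESeq2 or edgeR, beside 28.5% of all genes by DESeq2, a share from which 4 genes say little; at an unadjusted p under 0.05, 1 was higher at 2 h, 1 lower at 6 h against 0 h and 1 lower at 6 h against 2 h. Timp3 and Timp4 share exon sequence with Syn3 and Syn2, synapsin genes read from the other strand. Syn3 fell from 2314 and 2244 normalized counts at 0 h to 908.5 and 936.8 at 6 h, beside the 1306 to 1376 and 1220 to 1226 of Timp3. For Syn2 the counts were 6950 and 6637, then 5290 and 5041.

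Effective length, the mean length of the transcripts in use, tests whether the mix of transcripts moved along with the level. Of the 48 genes that averaged 100 or more expected counts, 0 were called at 2 h, at 6 h or between them by limma (adjusted p at most 0.05 and a log2 ratio of at least 0.2), beside 0.0356%, 0.525% and 0.116% of all genes. At an unadjusted p under 0.05 there were 4, 3 and 5. The log2 length ratios of Itga3 and Adamts17 at 6 h against 0 h were -0.17 and -0.08 (adjusted p = 0.464 each), and both were -0.33 at 6 h against 2 h (adjusted p = 0.398 and 0.146).

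Around these genes, 79 others that make, bind or cut matrix were followed by a list drawn up with earlier results of these data known. At 2 h, 1 of 76 was called higher and 2 lower, beside 3.62% and 5.94% of all genes tested. The higher one was Vcl, which links integrins to actin (412.8 and 488.8 normalized counts at 0 h, 1082 and 1317 at 2 h, 1183 and 1370 at 6 h; 1.41 ± 0.18, adjusted p = 8.86e-14). Lower at 2 h were P4ha2, a collagen prolyl hydroxylase (-1.52 ± 0.38, adjusted p = 0.000488), and Reck, a membrane inhibitor of Mmps (-1.35 ± 0.40, adjusted p = 0.00381). Reck then turned around, from 68.4 and 56.5 normalized counts at 0 h and 18.0 and 31.0 at 2 h to 139.1 and 159.2 at 6 h (2.61 ± 0.39 from 2 h, adjusted p = 1.83e-10).

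At 6 h against 0 h, 9 of 78 were called higher and 2 lower, beside 9.1% and 10.2% of all genes tested. Acan, aggrecan, the proteoglycan that the Adamts1 class cleaves, had the largest change of the list, from 42.6 and 36.2 normalized counts at 0 h and 77.9 and 61.0 at 2 h to 1501 and 1582 at 6 h (5.29 ± 0.22, adjusted p = 4.33e-123). Tll1, a procollagen C-proteinase, rose from 90.5 and 96.1 to 404.5 and 418.4 (2.14 ± 0.22, adjusted p = 2.51e-20). The 2 that fell act on the inner side of integrins: Tln2, talin 2, from 3036 and 2904 to 1388 and 1394 (-1.09 ± 0.12, adjusted p = 9.41e-19), and the kinase gene Ptk2b, from 999.6 and 1039 to 520.0 and 493.7 (-1.01 ± 0.13, adjusted p = 4.81e-13). From 2 h to 6 h, 8 of 75 were called higher and 3 lower (10.1% and 8.02% of all genes tested), the third being Loxl3, a cross-linking oxidase (-1.11 ± 0.46, adjusted p = 0.0344).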

How the data were processed

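Stranded poly(A) RNA-seq (150 bp paired ends) was made in 2 libraries for each of 3 times. The authors trimmed reads with Trim Galore and, per the submitters' processing notes, used Bowtie2 2.2.9 and RSEM 1.3.0 on mm10; annotation release and strand setting are not given in the sources used here. The deposited expected counts are RSEM estimates that divide shared reads between genes, the deposited TPM values are scaled for length and depth, and the deposited effective length is a mean over transcripts. Replicates were not pooled. Gene symbols and positions came from GENCODE M21 (42548 of 43432 identifiers matched).

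After rounding to whole numbers, the counts entered DESeq2 1.42.0 (R 4.3.3; Wald test, median-of-ratios size factors, all 6 libraries, group as the only term, two-sided, Benjamini-Hochberg over all genes kept). Normalized counts are counts over size factors, and ± marks the standard error of a log2 fold change. The count-based alternatives used edgeR 4.0.16 (quasi-likelihood test, TMM), and effective length was tested with limma 3.58.1. The fits were tested on simulated data first. TPM compares genes, and normalized counts compare times. Marker levels and their sums are given in TPM, which is scaled to each library's total.

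Families and lists were chosen with earlier results of these data known, and genes within the families by symbol. Values are given for called genes averaging 10 or more normalized counts (in full for the 5 largest and 5 smallest changes per comparison), for the 3 highest in TPM per family, for a fixed group (Col10a1, Itga3, Itgb1, Mmp2, Mmp9, Mmp14, Mmp24, Adamts1, Timp1 to Timp4, Lamb1 and Lamc1), and for the 3 largest and 3 smallest called changes of the other matrix genes. Neighbours, promoter cases and Col20a1 were added after their values were seen, and the subclasses were drawn up by hand from protein type.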

Additional observations from a re-analysis of the deposited data

How the results depend on the processing

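Depth and duplicates limit these results: with 2 libraries per time, calls on low counts, such as those of Col1a2, Itga2b and Col4a6, were lost when 1 library was left out, and changes near 2-fold, such as that of Col5a2, crossed the threshold with scaling. Of 48 calls of a gene in a comparison, 14 held under all alternatives tried, 28 held under all but the test against a 2-fold change, and 0 changed sign. The edgeR test lost 0 calls, TMM factors 1, library totals 7, GC offsets 3, and the fit of only the groups compared 3.

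Tested against a 2-fold change instead of against 0, 2 genes were called at 2 h against 0 h (1 higher, 1 lower), 7 at 6 h against 0 h (3 higher, 4 lower) and 5 at 6 h against 2 h (2 higher, 3 lower). Over all genes this test called 178 higher and 225 lower, then 446 and 414, then 342 and 198. The threshold itself is stricter. With library totals as size factors 8 were called higher and 12 lower at 6 h against 0 h, beside 14 and 8; this scaling moved the median of all genes by -0.25. Leaving out 1 library at a time gave 5 to 7 calls at 2 h against 0 h (2 to 3 higher, 3 to 4 lower), 17 to 20 at 6 h against 0 h (9 to 13 higher, 5 to 8 lower) and 14 to 20 at 6 h against 2 h (10 to 14 higher, 4 to 6 lower). The lowest counts at 6 h against 0 h came without the first 0 h library for genes higher and without the second 0 h library for genes lower. Such fits hold fewer samples, with 1 library left in a group, and at 6 h against 0 h they called fewer of all genes as well. Effective length gave 0 calls in all of these.

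The labels number the duplicates 1 and 2 at each time, which does not show that equal numbers were cultured together. Deviations of equal numbers correlated at 0.281 between 0 h and 2 h, -0.00226 between 0 h and 6 h and 0.152 between 2 h and 6 h over 12290 genes, and after GC correction at 0.118, -0.0618 and 0.0435. With the number as a replicate block, 6 genes were called at 2 h against 0 h, 20 at 6 h against 0 h and 18 at 6 h against 2 h, and with the replicate block and GC offsets 6, 20 and 17. Over all genes the replicate block called 548 higher and 967 lower, then 1508 and 1661, then 1639 and 1227. With GC offsets as well, the counts over all genes were 629 and 860, then 1465 and 1605, then 1402 and 1298.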
